A study of Drosophila melanogaster with 8 samples.

Results

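The genes described here build the germ plasm of the fly egg or carry maternal RNAs to their place in it. A list of 10 symbols defined them: exu, stau, orb, tud, osk, nos, vas, bcd, aub and piwi. Of these, 9 were measured, out of 10609 genes on the arrays, by 11 of the 12246 spots that the probe table pairs with a single gene. The table lists nos as nanos, and it was matched through its gene ID. No spot used here was paired with bcd, the gene of the anterior morphogen Bicoid, so it was not analysed here.

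Each of the 8 spotted 2-colour arrays set larval RNA against adult RNA from the wild-type Drosophila melanogaster strain Canton S, both as mixtures of stages. Larvae were in channel 1 on replicates 1, 3, 6 and 8, and adults were in channel 1 on replicates 2, 4, 5 and 7. No other genotype or treatment was used, and the labels give neither the ages within the mixtures nor the sexes. Per the labels the arrays used portions of a single TRIzol homogenate, each processed separately for the purpose of measuring technical error. The spread and the p-values below are therefore technical, and no difference between animals or cultures enters them.

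During oogenesis, nurse cells supply the growing oocyte with RNAs that are moved along microtubules and translated only once in place. Oskar RNA reaches the posterior pole, where Oskar protein gathers Vasa, Tudor and Aubergine into granules that later specify the germ cells and hold nanos RNA. Aubergine and Piwi are Argonaute proteins that bind piRNAs, short RNAs that silence transposons, and many genes of this group also act in the testis.

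Values are log2 ratios of the 2 channels, with each array centred on the median of the spots that have a single gene. Where adults were in channel 1 the sign was reversed, and the outcome is called the turned ratio. The sources used here do not name the channel in the numerator, so the positive side was not assigned to larvae or adults. A ratio also gives no level of either stage, and in bulk RNA fewer cells of a type and less RNA per cell cannot be told apart. Errors are SDs over arrays (n = 8), and adjusted p-values come from a limma fit of all 10609 genes with Benjamini-Hochberg adjustment and a threshold of 0.05.

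The genes of the group divided between the sides. On the positive side 4 of the 9 genes passed the threshold (exu, stau, orb and tud), where 29.2% of all genes did, and on the negative side another 4 did (vas, osk, aub and piwi), against 27.9% of all genes. Only nos was not past it. The positive ratios were the larger ones: 3 of the 9 genes were at least 2-fold away from equality on that side, against 6.25% of all genes, while the lowest ratio on the negative side was a 1.38-fold difference. No test of the group as a whole was made. All genes had a median of -0.01 and a middle range from -0.29 to 0.35.

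**Figure D1:**
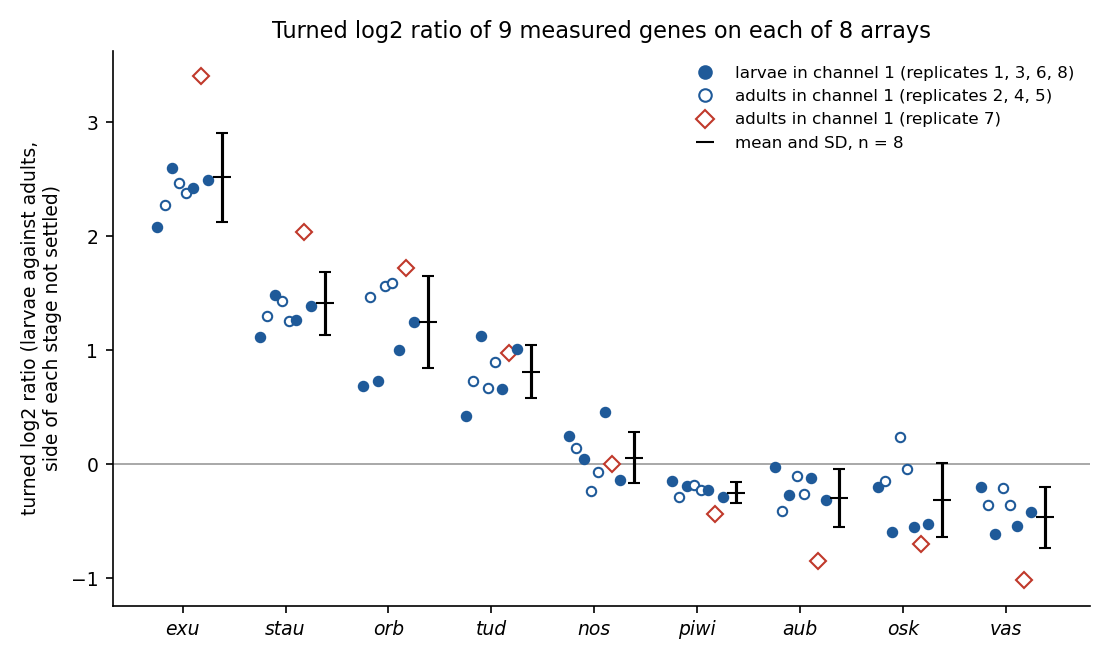
Turned log2 ratios (vertical axis) of the 9 measured genes on each of the 8 arrays, filled where larvae were in channel 1 and open where adults were, with replicate 7 as a diamond and the mean and SD beside them. exu, stau, orb and tud lie above 0 on all 8 arrays, piwi, aub and vas below 0 on all 8, and nos on both sides of 0.

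The factors that position RNAs came first. exu (exuperantia), an RNA-binding protein needed to bring bicoid RNA to the anterior of the oocyte, had turned ratios with a lowest value of 2.08, a median of 2.45 and a highest value of 3.41. The lowest array was replicate 1 and the highest replicate 7, and no array came near 0. Its mean was 2.52 ± 0.39, a 5.72-fold difference (limma adjusted p = 7.40e-08), and 0.613% of all genes had a larger ratio.

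stau (staufen), a double-stranded RNA-binding protein that moves oskar RNA to the posterior and anchors bicoid RNA, ran from 1.12 through a median of 1.34 to 2.04. Every array was positive, with replicate 7 well above the others and replicate 1 lowest. The mean was 1.41 ± 0.28, or 2.66-fold (limma adjusted p = 9.25e-07). stau was measured by a pair of spots, which stood at 1.40 ± 0.42 and 1.43 ± 0.17. The spots differed most on replicate 7, by 0.57, and their mean difference was -0.03 ± 0.30, so they agreed within the spread between arrays.

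orb, the CPEB protein that promotes polyadenylation and translation of oskar and gurken RNA, had values from 0.69 to 1.73 with a median of 1.36. Here the channel orientations separated. With larvae in channel 1 the values were 0.69, 0.73, 1.00 and 1.25 on replicates 1, 3, 6 and 8. With adults in channel 1 they were 1.47, 1.56, 1.59 and 1.73 on replicates 2, 4, 5 and 7. The groups did not overlap, and the mean of the first was 0.67 below that of the second. The mean over all 8 arrays was 1.25 ± 0.40, or 2.38-fold (limma adjusted p = 8.08e-07), and both orientations were positive throughout, at 0.92 ± 0.26 and 1.59 ± 0.11 (n = 4 each).

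The fit held a dye column that tests this difference between orientations. For orb it gave an unadjusted p of 0.00272 and an adjusted p of 0.914 (limma), and of all 10609 genes 0% passed the adjusted threshold. An unadjusted p of 0.05 was reached by 478 genes, or 4.51%, and orb was the only member among them. Values of the orientations that did not overlap were seen for 4.02% of all genes and for 1 of the 9 genes here. With array weights in limma the outcome differed: 1175 of all 10609 genes passed the dye test. Of the 9 genes here, orb (adjusted p = 0.0219) and osk (0.0468) were among them.

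Genes of the germ plasm itself were found on both sides. tud (tudor), the scaffold protein whose Tudor domains bind methylated arginines of Aubergine, had a lowest value of 0.42, a median of 0.81 and a highest value of 1.13. All arrays were positive, the lowest being replicate 1 and the highest replicate 3. The mean was 0.81 ± 0.23, or 1.75-fold (limma adjusted p = 3.96e-05). The means of the orientations were 0.80 and 0.82, the smallest dye difference of the group in this fit.

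osk (oskar), whose protein nucleates the germ plasm, ran from -0.70 to 0.23 with a median of -0.36. It was negative on 7 of 8 arrays and positive on replicate 4. Its mean of -0.32 ± 0.33 was about as large as its SD, and the adjusted p was 0.0247 (limma). That call was lost without replicate 3 (adjusted p = 0.0596), replicate 6 (0.0616) or replicate 8 (0.0577), while the ratio stayed between -0.29 and -0.31 there. The spots for osk stood at -0.29 ± 0.35 and -0.34 ± 0.34, with a largest gap of 0.38 on replicate 7.

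vas (vasa), a DEAD-box RNA helicase of the germ line, had values from -1.02 to -0.20 with a median of -0.39. All arrays were negative and replicate 7 was the lowest. The mean of -0.47 ± 0.27 was the lowest of the group (limma adjusted p = 0.00273), and 13.0% of all genes had a smaller ratio. nos (nanos), the translational repressor that acts with Pumilio on hunchback RNA, ran from -0.24 to 0.46 with a median of 0.03, positive on 5 arrays and negative on 3. Its mean was 0.06 ± 0.22 (SE 0.09, limma adjusted p = 0.606). The nos spot was also the dimmest of the group, at percentile 3.42 of genes for brightness, while the others lay between percentiles 40.4 and 76.8. Brightness here is the mean log2 of the whole numbers whose ratio each value is, and it is a lower bound.

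The piRNA-binding Argonautes had small negative ratios with different spreads. aub (aubergine), which works in the cytoplasmic granules, ran from -0.85 to -0.02 with a median of -0.27. The lowest value was again replicate 7, and the other 7 arrays lay at or above -0.41. The mean was -0.30 ± 0.26 (limma adjusted p = 0.0203), and the call was lost without replicate 8 (adjusted p = 0.0567). piwi, which silences transposons in the nucleus of germ line and somatic gonad cells, had a narrow range from -0.44 to -0.15 with a median of -0.23. All arrays were negative, and the mean was -0.25 ± 0.09 (limma adjusted p = 0.0145). Of all genes, 28.4% had a smaller ratio than piwi, 24.7% a smaller ratio than aub and 23.0% a smaller ratio than osk, so these ratios lay near the lower end of the middle range of all genes.

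The order of means was exu, stau, orb, tud, nos, piwi, aub, osk and vas. A two-sided exact permutation test with sign flips over the arrays was applied to the difference of each of the 8 neighbouring pairs, with Benjamini-Hochberg adjustment, and the smallest p it allows is 0.00781. exu exceeded stau on 8 of 8 arrays by 1.11 ± 0.13 (exact permutation adjusted p = 0.0313), and tud exceeded nos on 8 of 8 by 0.75 ± 0.39 (also 0.0313). nos exceeded piwi on 7 of 8 arrays by 0.31 ± 0.23 (exact permutation adjusted p = 0.0417). The other neighbours were not separated by this test. stau and orb differed by 0.16 ± 0.36 (exact permutation adjusted p = 0.354) and orb and tud by 0.44 ± 0.42 (0.0781). This test holds no dye column, so the gap of orb between channel orientations is part of the spread of these pairs. The differences within piwi, aub, osk and vas were 0.05 ± 0.17, 0.02 ± 0.30 and 0.15 ± 0.20, with exact permutation adjusted p-values of 0.634, 0.844 and 0.138. The order was taken from the same arrays, so these tests describe how far neighbours stand apart technically.

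Since the arrays were made to measure technical error, the residual SD of each gene in the fit was set beside that of all genes, whose median was 0.30 with quartiles of 0.22 and 0.40. The residual SD was below that median for 7 of the 9 genes. piwi had the smallest, 0.09, at percentile 0.839 of all genes. exu had the largest, 0.40, at percentile 75.1, and osk stood at 0.31. The remaining genes lay from 0.20 for orb to 0.29 for vas. The dye column takes up part of the spread of orb, whose plain SD of 0.40 was above its residual SD.

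**Figure D2:**
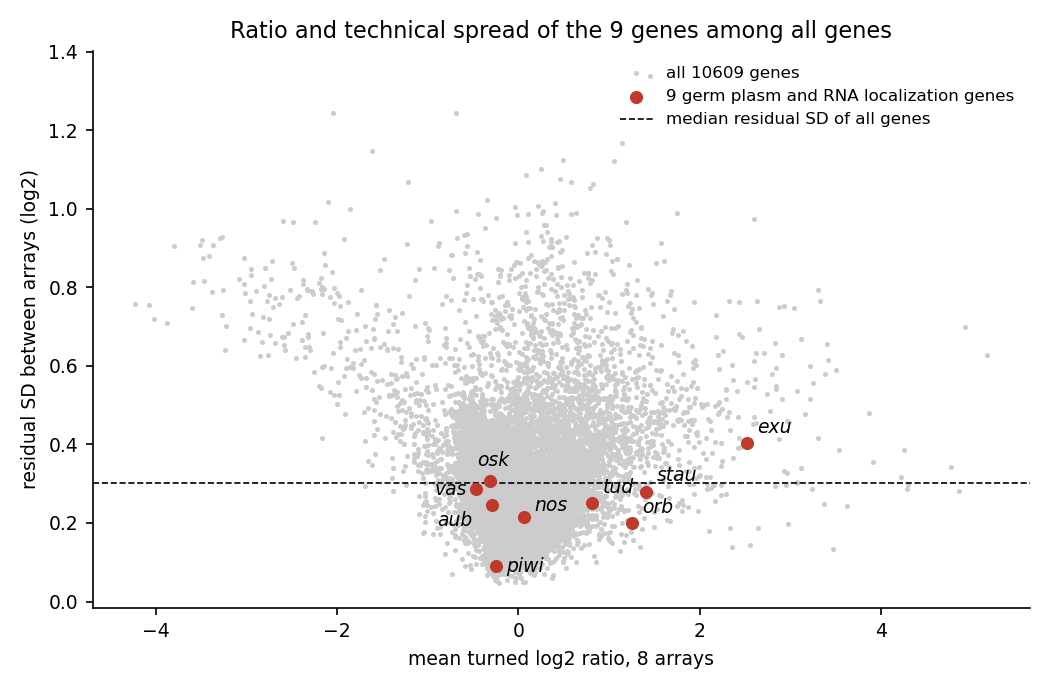
Mean turned log2 ratio (horizontal axis) against the residual SD between arrays in log2 (vertical axis) for all 10609 genes in grey and the 9 genes in red, with the median residual SD of all genes as a dashed line. exu lies far to the right at a residual SD of 0.40 and piwi lies near the bottom at 0.09.

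Replicate 7 lay outside the range of the other 7 arrays for 7 of the 9 genes, above it for exu, stau and orb and below it for piwi, aub, osk and vas. The same held for 56.8% of all genes. This array also had the widest spread: the median absolute ratio of genes was 0.62 on replicate 7 and from 0.20 to 0.47 on the other arrays. Without it the means were 2.39 ± 0.17 for exu, 1.32 ± 0.12 for stau, -0.22 ± 0.14 for aub and -0.39 ± 0.16 for vas (n = 7 each), and all 8 calls held. Part of the SD of these genes thus came with that array, since the SD of exu fell from 0.39 to 0.17 and that of vas from 0.27 to 0.16.

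Scaling every array to the same median absolute ratio acted differently on the members. For vas the SD over arrays went from 0.27 to 0.10 and for aub from 0.26 to 0.18. For exu it rose from 0.39 to 0.61, with replicate 7 then the lowest array at 1.91 and the highest array at 3.60. The SDs of stau (0.33), orb (0.52) and nos (0.25) were also higher after scaling, and the SD was lower for 5 of the 9 genes. The means moved little, to 2.55 for exu and -0.42 for vas.

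**Figure D3:**
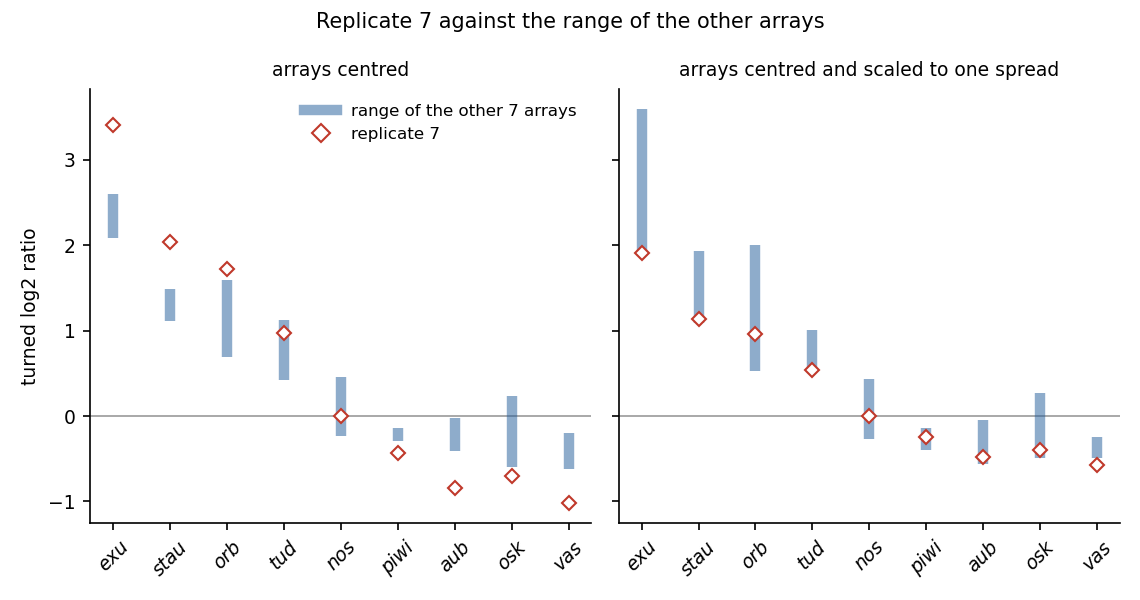
Turned log2 ratio (vertical axis) on replicate 7 (diamonds) and the range of the other 7 arrays (bars) for each gene, with arrays centred on the left and also scaled to the same spread on the right. On the left replicate 7 lies outside the bars for exu, stau, orb, piwi, aub, osk and vas; on the right it lies at the low end for exu, at 1.91.

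Centring sets where 0 lies. The deposited arrays had medians from -0.70 to 0.51, and without centring the mean turned ratio of every gene over the 8 arrays was 0.44 lower, while with centring on all 20000 spots it was 0.14 lower. The median of all genes then became -0.45 and -0.15, and the genes called positive and negative numbered 1034 and 6029, or 2049 and 3690, in place of 3099 and 2958. A shift common to all genes leaves their distances from that median as they were. exu stayed positive at 2.08 and 2.38 and tud at 0.37 and 0.67, and vas stood at -0.90 and -0.61. nos turned negative, to -0.38 as deposited (limma adjusted p = 0.0414) and to -0.08 with all spots (0.587), values above the median of all genes in both cases.

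The genes whose 8 turned ratios lay closest to those of a member were found by root mean square distance, for the members with a mean of at least 1 in size. Closest to exu were uncNacbeta (distance 0.257), CREG (0.296) and Hsp26 (0.316), with means of 2.60, 2.59 and 2.36. Closest to stau were blow (0.146), SP1029 (0.166) and CG8746 (0.168), with means from 1.35 to 1.48. Closest to orb were bb8 (0.155), h-cup (0.163) and Tssk (0.215), with means from 1.21 to 1.34. The distance is in log2 units over 8 arrays that share their RNA source.

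Partner genes were taken from 5 lists, written with earlier results of these data known. Among genes that carry or anchor oskar and bicoid RNA, such as motor subunits and adaptors, 19 of 25 were measured, of which 5 (26.3%) passed with positive and 2 (10.5%) with negative ratios, against 29.2% and 27.9% of all genes. The list median was 0.12. Klc, a kinesin light chain, was at 0.96 ± 0.35, and ctp, a dynein light chain, at 0.67 ± 0.38. Imp, an RNA-binding protein of the oskar particle, stood at 0.57 ± 0.46, and jagn, a membrane protein of the endoplasmic reticulum, at -0.91 ± 0.25. The jagn spots differed in size, at -1.34 ± 0.53 and -0.49 ± 0.37. As deposited 1 gene of this list was positive and 7 negative (5.26% and 36.8%), where 9.75% and 56.8% of all genes were.

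Translational regulators of maternal RNAs had 4 positive and 2 negative genes of 16 measured (25% and 12.5%, against 29.2% and 27.9% of all genes), with a median of 0.03. As deposited they had 2 and 9, and the negative share of 56.3% was near the 56.8% of all genes. orb2, the paralog of orb, was at 1.23 ± 0.31 as the mean of 3 spots, which disagreed: 1.92 ± 0.50, 1.57 ± 0.45 and 0.19 ± 0.15, the last not past the threshold (limma adjusted p = 0.0765 over the spots with a single gene). Pop2, a deadenylase of the CCR4-NOT complex, stood at 0.99 ± 0.25 and hrg, a poly(A) polymerase, at 0.77 ± 0.38. Fmr1, an RNA-binding repressor, was at -0.65 ± 0.46.

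Genes for forming and maintaining germ cells had 2 positive and 3 negative of 11 measured (18.2% and 27.3%, against 29.2% and 27.9% of all genes), with a median of -0.07. As deposited they had 0 and 7 (0% and 63.6%, against 9.75% and 56.8%). wun, a lipid phosphatase that guides migrating germ cells, was at 0.52 ± 0.47, and gcl (germ cell-less), needed for pole cells, at 0.38 ± 0.42. The call of gcl was lost without replicate 3 (limma adjusted p = 0.0508), without replicate 6 (0.0564), with centring on all spots (0.158) and as deposited, where its ratio was -0.06. zpg, the germ line gap junction gene, stood at -0.52 ± 0.41 and stil at -0.31 ± 0.25, the latter not past the threshold without replicate 3 (0.0575) or replicate 8 (0.0652). The list held 1 negative gene without replicate 3 or without replicate 8, and 1 positive gene without replicate 3 or without replicate 6.

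The piRNA pathway, in which aub and piwi act, had 5 positive and 7 negative genes of 24 measured, with a median of -0.14. The positive share was 20.8%, against 29.2% of all genes, and the negative share 29.2%, against 27.9%. As deposited 2 and 14 genes passed (8.33% and 58.3%, against 9.75% and 56.8%). mael (maelstrom) was at 1.00 ± 0.87, a wide spread with values from -0.01 to 2.87, and krimp, a Tudor-domain partner of Aubergine, at 0.85 ± 0.37. tapas stood at 0.69 ± 0.46 and Gasz, of the mitochondrial surface, at 0.54 ± 0.29. krimp and Gasz were dim, at brightness percentiles of 4.91 and 0.387. With the dimmest 25% of genes left out, 15 genes of the list remained, with 2 positive and 5 negative. Of all genes kept, 2421 were then positive and 2384 negative. Of the called genes on the negative side, BoYb and zuc, chosen after their values were seen, were at -0.53 ± 0.47 and -0.45 ± 0.35.

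Maternal genes of axis patterning had 8 positive and 6 negative genes of 22 measured (36.4% and 27.3%, against 29.2% and 27.9% of all genes), with a median of 0.03. As deposited they had 1 and 12 (4.55% and 54.5%, against 9.75% and 56.8%). Tl, the Toll receptor, was at 0.88 ± 0.28 and its inhibitor gene cact at 0.70 ± 0.33. The protease genes snk and ndl, which act upstream of Toll in the egg, stood at -0.90 ± 0.17 and -0.66 ± 0.47. As deposited, cact (limma adjusted p = 0.0937), ctp (0.142), Imp (0.415), hrg (0.0717), wun (0.622), tapas (0.115) and Gasz (0.569) were not past the threshold, nor was the yolk protein gene Yp2 (0.0610).

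Markers of follicle cell and yolk products and of male germ cells were read beside the group, since the RNA came from mixtures of stages. Of 21 eggshell and yolk genes listed, 13 were measured. They had 2 positive and 6 negative genes (15.4% and 46.2%, against 29.2% and 27.9% of all genes). The list median lay between -0.48 and -0.08 on the 8 arrays. Both positive genes were yolk protein genes, Yp1 at 1.17 ± 0.40 and Yp2 at 0.75 ± 0.28, while Yp3 stood at 0.02 ± 0.11. All 6 negative genes were eggshell genes, with psd at -0.77 ± 0.45 and the vitelline membrane gene Vm26Ac at -0.63 ± 0.32. Of the chorion Cp genes listed, only Cp16 and Cp38 were measured. They were dim, at brightness percentiles of 4.46 and 2.22, and not past the threshold. Of 29 testis and sperm symbols listed, 18 were measured, and the symbol rye was matched to no gene. Among them 9 were positive and 5 negative (50% and 27.8%, against 29.2% and 27.9% of all genes). Their list median lay between 0.23 and 0.72. Mst98Cb and Mst77F, genes of late sperm development, were at 3.54 ± 0.37 and 2.96 ± 0.44, and the sperm genes dj and ProtB at 1.66 ± 0.53 and 1.52 ± 0.40. The 5 negative genes, named after their values were seen, regulate meiosis and transcription in spermatocytes. They were nht at -0.51 ± 0.33, aly at -0.47 ± 0.29, can at -0.39 ± 0.37, Taf12L at -0.34 ± 0.30 and comr at -0.34 ± 0.39. The calls of nht and aly held in all alternatives listed below. Those of can, Taf12L and comr did not, with highest limma adjusted p-values of 0.0581, 0.0541 and 0.117. Without replicate 3 or without replicate 6 the list held 3 negative genes. Not all regulators of this kind in the list were negative. achi was called positive at 0.55 ± 0.19. Its signal was dim, at brightness percentile 2.65, and the call did not hold in all alternatives (highest limma adjusted p = 0.534). topi, twe and bol were not past the threshold, at 0.11 ± 0.28, 0.16 ± 0.40 and 0.17 ± 0.17. As deposited the eggshell and yolk list had 1 positive and 11 negative genes (7.69% and 84.6%), and the testis and sperm list 8 and 6 (44.4% and 33.3%), against 9.75% and 56.8% of all genes. The part of ovary or testis tissue in the ratios of exu, stau, orb and tud was not tested.

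**Figure D4:**
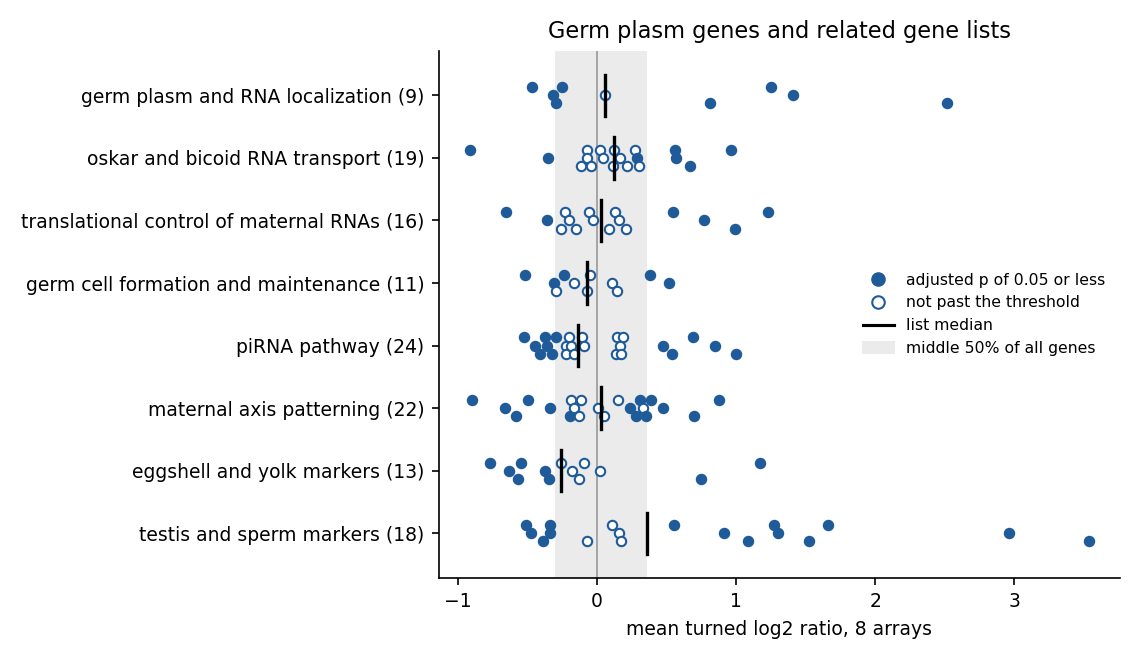
Mean turned log2 ratios (horizontal axis) of the 9 genes and of the measured genes of 7 lists, filled where the adjusted p was 0.05 or less, with list medians as vertical bars and the middle 50% of all genes shaded. exu at 2.52 lies beyond all genes of the 5 partner lists, and Mst98Cb and Mst77F of the testis list lie beyond exu.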

How the data were processed

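Per the labels, the authors scanned the 8 arrays with an Axon 4000 series instrument running GenePix and measured spots with Spot version 2.0; the sources used here name no background method, filter or dye. The deposited values are log2 ratios: 100% of them were log2 quotients of whole numbers up to 65535 (relative tolerance 1e-13), against at most 1.67% of 300 sampled spots per array in base 10. Depth has no counterpart here, and precision is limited by the number of arrays. Turned arrays correlated over genes at Pearson's r from 0.56 to 0.95.

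Spots were named from the platform's probe table, with symbols updated through RefSeq gene IDs and accessions (Release 6, for names only): 11873 of 12246 spots with a single gene matched and 373 kept their symbol. Spots of a gene were averaged. The fit used limma 3.58.1 in R 4.3.3 (lmFit, eBayes) with a stage and a dye column and 6 residual degrees of freedom, and was tested on simulated data. Tables and figures used Python 3.11.15, scipy 1.17.1 and matplotlib 3.10.9.

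The members and lists were chosen with earlier results of these data known. Named are all members, up to 4 genes per list with the largest absolute ratio, and the 3 nearest genes of members with an absolute mean of at least 1. Yp3, Cp16, Cp38, BoYb, zuc, nht, aly, can, Taf12L, comr, achi, topi, twe and bol were named after their values were seen. Alternatives were 3 other centrings, scaling, quantile normalization, no dye column, array weights, a single spot per gene, dim genes left out, a loess curve against brightness, and each replicate left out.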

Additional observations from a re-analysis of the deposited data

Results flagged for a closer look

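On replicate 7 the turned ratio of exu (3.41), stau (2.04) and aub (-0.85) stood far from the other 7 arrays: the gap to the nearest array was 0.608, 0.603 and 0.534 of the whole range, above Dixon's critical value for 8 samples. Chance flags about 1 in 20 groups. Of all genes, 10.5% had such a gap, and 70.6% of those gaps were on replicate 7.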

How the results depend on the processing

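Over 18 alternatives (17 for nos, which is left out with the dim genes), exu, stau, orb, tud, piwi and vas kept their side and their call; exu ranged from 2.08 to 2.58 and piwi from -0.69 to -0.22. nos was reversed as deposited (-0.38) and centred on all spots (-0.080). The mean turned ratio of every gene shifted by -0.44 and -0.14 in these settings. With each replicate left out, 5333 to 6257 genes passed (5333 without replicate 8), 4 members were positive each time, 2 to 4 were negative (2 without replicate 8), and 0 passed the dye test. Array weights gave 2 of the 9 members past the dye test in place of 0, where 1175 of all 10609 genes passed in place of 0. The cause was not tested. The count of neighbouring pairs past the threshold was 3, and 0 to 5 with a replicate left out. With 7 arrays the smallest exact p is 0.0156, which becomes 0.0625 after adjustment when only 2 pairs reach it, so a count of 0 there says nothing about stability. Of the counts and medians of the 7 lists, 333 values stayed within 1.5 times the count or within 1 SD of the median, and 45 moved, most of them as deposited or centred on all spots. Arrays of opposite channel orientation could not be paired, because no replicate number occurs in both orientations. Each ratio already sets larvae against adults on the same array, and the test of neighbours compares genes within arrays.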
